A study of Mus musculus with 4 samples.

Results

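The naive pluripotency factors are a set of 10 genes, Nanog, Esrrb, Tfcp2l1, Klf2, Klf4, Klf5, Tbx3, Zfp42, Prdm14 and Dppa3, taken by gene symbol from a table of 55401 mouse genes. They were measured by RNA-seq in mouse embryonic stem cells (mESCs) of the line E14, in 2 libraries of WT cells and 2 libraries of Haspin-KO cells. The Haspin-KO cells were made from WT E14 cells with CRISPR/Cas9 and guides against the coding sequence of Haspin, the kinase that phosphorylates histone H3 at threonine 3, and single clones negative for that mark were picked. The clones had gone through transfection and puromycin selection. The culture medium of the study held fetal bovine serum, LIF and the 2i inhibitors PD0325901 and CHIR99021. The RNA-seq method names no other medium and no treatment, and no age applies to the cells. The study describes 2 Haspin-KO lines, but the labels do not say which line gave which library, so that a difference between genotypes cannot be told apart from a difference between clones. The methods name mouse embryonic fibroblast feeders for passage and gelatin-coated dishes for assays. They do not say on which of these the sequenced cells were grown. Nothing says that the replicates of a genotype were separate cultures, so that p-values measure only the spread between these libraries, which may be technical.

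Mouse ES cells in LIF and 2i are held in a naive state, which resembles the inner cell mass of the blastocyst. LIF acts through Stat3, inhibition of Gsk3 relieves repression by Tcf7l1, and inhibition of Mek blocks the signal to differentiate. These inputs meet on an interconnected set of transcription factors, most of the genes described here, which activate one another's genes together with Oct4 (Pou5f1) and Sox2. The levels of these factors fall when cells leave the naive state. The comparison asked which of them differed in RNA level between Haspin-KO and WT cells. In the study itself, Nanog staining was also the readout used to tell asymmetric from symmetric divisions.

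In the RNA, none of the 10 genes passed edgeR's test between Haspin-KO and WT, while DESeq2, the tool the study names, called 1 of them, Klf4. The study's own rule also required a fold change over 2, which Klf4 did not reach. This gene, which encodes a zinc finger factor of the Krüppel-like family, measured 18.5% lower in Haspin-KO, with both Haspin-KO libraries under both WT libraries. For 9 of the 10 genes the 95% interval of the difference lay between -0.45 and 0.45 on the log2 scale, well within a 2-fold change either way. Dppa3, with few reads, was the exception.

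The 3 promoters shown here are those of the pair with the highest levels, Nanog and Zfp42, and of Klf4. Each covers 250 bases before to 50 bases after a RefSeq start site in GRCm38.p6, 5′ to 3′ on the strand of the gene. Nanog lies at chr6:122707239-122707538 on the plus strand and is the first of its listed starts, Zfp42 at chr8:43306960-43307259 on the minus strand and Klf4 at chr4:55532426-55532725 on the minus strand. Capitals mark TTTGCAT, part of the octamer that Oct4 binds within the joint Oct4-Sox2 element, and the Klf motif CCNCACCC.
Nanog: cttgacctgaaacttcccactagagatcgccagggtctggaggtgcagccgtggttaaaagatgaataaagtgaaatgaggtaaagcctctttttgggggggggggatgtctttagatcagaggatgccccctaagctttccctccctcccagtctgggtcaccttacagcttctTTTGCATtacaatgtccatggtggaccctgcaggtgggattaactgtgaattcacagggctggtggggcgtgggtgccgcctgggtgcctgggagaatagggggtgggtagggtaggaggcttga
Zfp42: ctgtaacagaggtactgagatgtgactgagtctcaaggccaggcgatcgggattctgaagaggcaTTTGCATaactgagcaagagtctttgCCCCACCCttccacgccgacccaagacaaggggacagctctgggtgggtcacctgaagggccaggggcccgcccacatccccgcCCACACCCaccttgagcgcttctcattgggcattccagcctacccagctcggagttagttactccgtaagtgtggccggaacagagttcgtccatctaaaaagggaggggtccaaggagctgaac
Klf4: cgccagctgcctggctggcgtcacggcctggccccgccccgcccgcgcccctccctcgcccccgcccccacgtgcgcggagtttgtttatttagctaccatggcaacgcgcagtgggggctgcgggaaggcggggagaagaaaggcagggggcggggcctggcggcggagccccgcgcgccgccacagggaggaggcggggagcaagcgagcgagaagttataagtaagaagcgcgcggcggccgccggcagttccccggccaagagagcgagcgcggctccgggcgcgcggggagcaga

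RefSeq promoters were matched for 6 of the 10 genes, with 8 start sites in all. In a search of both strands, TTTGCAT was found in Nanog, 75 bases before the start shown, and in Zfp42, 185 bases before the start. It occurs in 4.63% of 32851 mouse promoters of this length. The Klf motif was found at 159 and 75 bases before the start of Zfp42, and in both listed promoters of Esrrb, at 39 and at 105 bases, against 16.6% of all promoters. A STAT motif (TTCNNNGAA, 8.3% of promoters) stood 178 bases before the first start of Esrrb. The Esrrb motif AAGGTCA (4.72%) and the Tcf/Lef motif CTTTGAT (3.73%) were in none of the 8 windows, and the promoters of Klf4, Klf2 and Tfcp2l1 held none of the 5 motifs. The letters overlap no other motif in these windows. The matches are descriptions of sequence and were not tested for binding.

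Library totals ranged from 14207828 to 21834847 counts, and the 10 genes took 0.444 to 0.470% of the counts of a library. All 10 passed the filter on low counts, along with 15580 genes in all. Haspin, the targeted gene, had 40.1 and 35.7 CPM in WT and 10.4 and 14.6 CPM in Haspin-KO, a log2 fold change of -1.60 (edgeR adjusted p = 0.00154), which is the direction the labels give. CPM values here are counts scaled by the library total after TMM adjustment. The ES cell markers Pou5f1, Sox2, Nanog and Zfp42 were high in all 4 libraries. Of the 12 listed feeder fibroblast markers, 10 were tested, and 8 of these fell in Haspin-KO by edgeR, against 1.51% of all genes tested. Not tested were Lum, with 0 counts in all 4 libraries, and Dcn, with 4 and 2 counts in WT and 0 in Haspin-KO. DESeq2 called 7 of the 11 it fitted, and limma on FPKM called 0, as it did of all genes. The summed level of these markers was 248 and 185.9 CPM in the WT libraries against 34.4 and 38.7 CPM in the Haspin-KO libraries. The part of these markers in the differences below was not tested, and in bulk RNA fewer cells of a type and less RNA per cell cannot be told apart.

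Levels can be set against each other between genes only per length, as FPKM. Zfp42 and Nanog were the most abundant of the 10 transcripts, at 397.9 ± 45.3 and 397 ± 32.8 FPKM in WT (SD, n = 2), and their libraries overlapped. Esrrb followed at 151.5 FPKM, then Klf2 at 123.3 and Tfcp2l1 at 111.2 FPKM, which overlapped each other. Klf4 stood alone at 82.3 FPKM. Tbx3 at 41.8 and Klf5 at 39.2 FPKM overlapped, Prdm14 had 15.7 FPKM, and Dppa3 was last at 1.82 FPKM, so that Nanog was 217.5 times as abundant per length as Dppa3. In WT, 8 of the 10 lay among the top 10% of tested genes by FPKM. In Haspin-KO the order was the same but for the pairs Nanog and Zfp42 (371.6 and 362.7 FPKM) and Klf5 and Tbx3 (43.2 and 41.6 FPKM), which changed places within overlapping ranges.

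**Figure D1:**
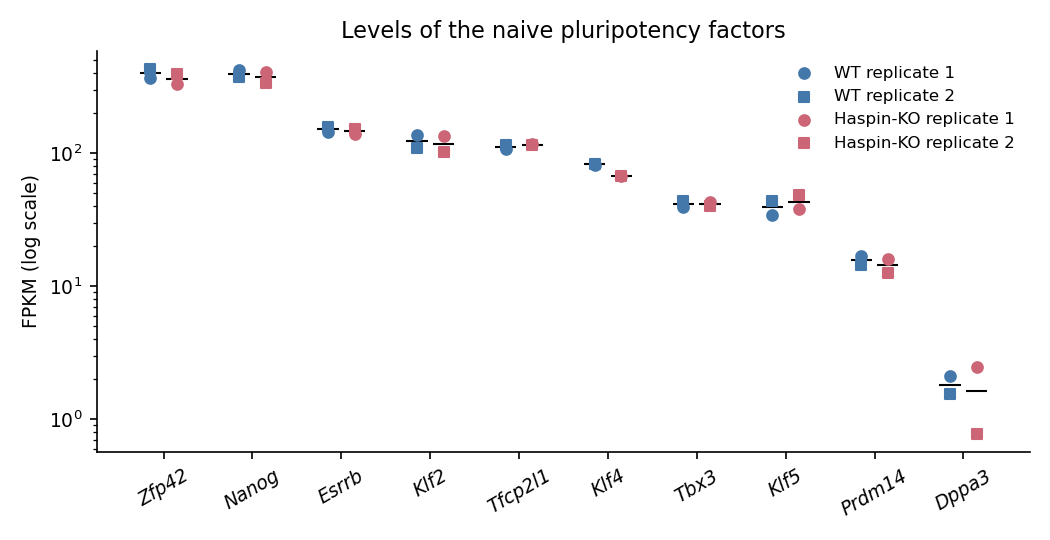
FPKM of each gene on a log axis, with 1 point per library (WT blue, Haspin-KO red, circles for replicate 1 and squares for replicate 2) and a bar at the mean of the 2 libraries. Zfp42 and Nanog lie near 397 FPKM in WT and Dppa3 at 1.82 FPKM, and the points of a genotype separate from those of the other for Klf4 and, narrowly, for Tfcp2l1.

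Nanog is the homeodomain factor whose loss makes ES cells prone to differentiate. It lies at chr6:122707489-122714633 on the plus strand (coordinates as deposited, mm10) and measured 941.6 and 843.7 CPM in WT and 900.4 and 764.6 CPM in Haspin-KO. The groups overlapped, since the higher Haspin-KO library lay between the WT libraries. The log2 fold change was -0.10 ± 0.091 (SE), with a 95% interval of -0.31 to 0.10 and an edgeR adjusted p of 0.565. Its reads are the cells' average and carry no information on how Nanog was spread between daughter cells. Of the 50-base stretches of Nanog transcripts, 4.61% also occur in other genes, while its pseudogenes Nanog-ps1 and Nanog-ps2 had 0 counts in every library.

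Zfp42 (Rex1) encodes a zinc finger protein that is a standard reporter of the naive state and is not needed to maintain it. It lies at chr8:43295063-43306980 on the minus strand and measured 687.8 and 814.2 CPM in WT and 622 and 744 CPM in Haspin-KO. Again the groups overlapped. The log2 fold change was -0.14 ± 0.10, with an interval of -0.37 to 0.10 and an edgeR adjusted p of 0.486. Of the 50-base stretches of Zfp42 transcripts, 8.52% also occur in a pseudogene, Zfp42-ps1. The pseudogene had 459 and 398 counts in WT and 278 and 236 in Haspin-KO, or 2.22 to 3.11% of the Zfp42 counts in a library. How far reads of the pair were exchanged or dropped is not known, since the treatment of multiply mapped reads is not given in the sources used here.

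Esrrb, an orphan nuclear receptor, and Tfcp2l1, a Grainyhead-like family factor, link the Gsk3 and Stat3 inputs to the network. Esrrb (chr12:86361117-86521628, plus strand) measured 876.8 and 960.9 CPM in WT and 832.4 and 933.1 CPM in Haspin-KO. Its groups overlapped, and the log2 fold change was -0.06 ± 0.080 (95% interval -0.24 to 0.12, edgeR adjusted p = 0.725). Tfcp2l1 (chr1:118627945-118685168, plus strand) had the most reads of the 10, with 1017.2 and 1088 CPM in WT and 1090.6 and 1095.8 CPM in Haspin-KO. Both Haspin-KO libraries lay above both WT libraries, but the lower of them exceeded the second WT library by less than the WT libraries differed from each other. The log2 fold change was 0.05 ± 0.067 (95% interval -0.10 to 0.21, edgeR adjusted p = 0.688). Small genes that overlap Tfcp2l1 cover 1.38% of its exonic bases.

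The 3 Krüppel-like factors Klf2, Klf4 and Klf5 have overlapping roles in ES cells, where Klf4 responds to Stat3, and together they are needed for self-renewal. Klf2 (chr8:72319033-72321656, plus strand) measured 254.6 and 202.2 CPM in WT and 244.6 and 189.4 CPM in Haspin-KO. In both genotypes replicate 1 was higher, and the groups overlapped. Its log2 fold change was -0.07 ± 0.13 (95% interval -0.37 to 0.22, edgeR adjusted p = 0.795). Klf5 (chr14:99298691-99315036, plus strand) measured 178.6 and 230.5 CPM in WT and 196.8 and 253.3 CPM in Haspin-KO. Here replicate 2 was higher in both genotypes, and the groups again overlapped. Its log2 fold change was 0.14 ± 0.14 (95% interval -0.17 to 0.45, edgeR adjusted p = 0.604).

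Klf4 (chr4:55527143-55532466, minus strand) measured 246.7 and 256.7 CPM in WT and 201.9 and 208.4 CPM in Haspin-KO, from 5390, 4450, 2899 and 2976 counts. The libraries of a genotype lay close together, at 251.7 ± 7.05 CPM in WT and 205.1 ± 4.66 CPM in Haspin-KO (SD, n = 2), and the groups did not overlap. The log2 fold change was -0.29 ± 0.070, with a 95% interval of -0.45 to -0.14, an unadjusted p of 0.00201 and an adjusted p of 0.0604 (edgeR quasi-likelihood test, Benjamini-Hochberg over 15580 genes). With DESeq2 the log2 fold change was -0.30 and the adjusted p was 0.0329, and by edgeR with no filter on low counts, which called 4.09% of all genes, the adjusted p was 0.00732. Klf4 was called in 3 of 13 alternatives in all, so that the call depends on the tool, the filter and the design of the fit. Relative to Pou5f1, the Klf4 FPKM ratio was 0.170 and 0.184 in WT and 0.159 and 0.157 in Haspin-KO, without overlap. The mean log2 ratio differed by -0.16, a smaller difference than the -0.29 of Klf4 itself. Pou5f1 had a log2 fold change of -0.14 of its own (edgeR adjusted p = 0.274), which the ratio takes off the Klf4 difference. The summed feeder marker level was 248 and 185.9 CPM in WT and 34.4 and 38.7 CPM in Haspin-KO, and its part in the Klf4 difference was not tested. A pseudogene that shares 0.263% of the 50-base stretches of Klf4, Gm48640, had 1 count in a single library.

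The genes whose pattern over the 4 libraries was most like that of Klf4 were Ctsc, a lysosomal protease, Gar1, a subunit of H/ACA ribonucleoproteins, and Acvr1b, a type I activin receptor. Their distances from Klf4, as the Euclidean distance of log2 CPM centred on each gene's mean, were 0.00971, 0.0107 and 0.0116. They were chosen for this likeness, which includes the difference between genotypes, and their log2 fold changes of -0.29, -0.29 and -0.30 are therefore given without a test.

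Tbx3, Prdm14 and Dppa3 were the remaining genes. Tbx3, a T-box factor downstream of several of the signals in the medium, lies at chr5:119670669-119684724 on the plus strand and measured 262.9 and 292.1 CPM in WT and 280.5 and 270.5 CPM in Haspin-KO. Both Haspin-KO libraries fell between the WT libraries, and the log2 fold change was -0.01 ± 0.076 (95% interval -0.18 to 0.16, edgeR adjusted p = 0.959). An antisense gene, Tbx3os1, overlaps 1.74% of its exonic bases and had 1.47 to 1.81 CPM, and the strand setting of the counting is not given in the sources used here. Prdm14, which represses Fgf receptor signalling and DNA methyltransferase genes, lies at chr1:13113457-13127163 on the minus strand. It measured 43.3 and 37.5 CPM in WT and 40.8 and 32.8 CPM in Haspin-KO, with overlapping groups and a log2 fold change of -0.14 ± 0.13 (95% interval -0.42 to 0.15, edgeR adjusted p = 0.574).

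Dppa3 (Stella), a maternal-effect protein that protects DNA methylation in the zygote and marks a fraction of ES cells, lies at chr6:122626410-122630272 on the plus strand, 77216 bases before Nanog. It had 41 and 24 counts in WT and 31 and 10 counts in Haspin-KO, or 1.88, 1.38, 2.16 and 0.70 CPM. The highest and the lowest libraries were both Haspin-KO. The log2 fold change was -0.20 ± 0.48 with a 95% interval of -1.27 to 0.87 (edgeR adjusted p = 0.850), so that a 2-fold lower level was not excluded at this depth. In its transcripts 16.5% of the 50-base stretches also occur in pseudogenes, all of which had at most 1 count in a library.

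Over the 10 genes, 0 passed an adjusted p of 0.05 in edgeR, against 2.50% of all genes tested (154 higher and 236 lower in Haspin-KO). At an unadjusted p under 0.05 it was 1 of 10, Klf4, against 20.8%. DESeq2 called 1, Klf4, against 3.84% of the 12285 genes with an adjusted p (472 genes), and limma on log2 FPKM called 0 of the 10 and 0 of all genes. The libraries of the genotypes did not overlap for 2 of 10, Klf4 and Tfcp2l1, against 52.3% of all genes tested. The log2 fold changes ran from -0.29 to 0.14 with a median of -0.09, 8 below 0 and 2 above, where the median of all genes tested was 0. Their median size, without sign, was 0.119, next to 0.123 in the 6467 genes with a mean of at least 30 CPM, of which 3.36% were called.

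**Figure D2:**
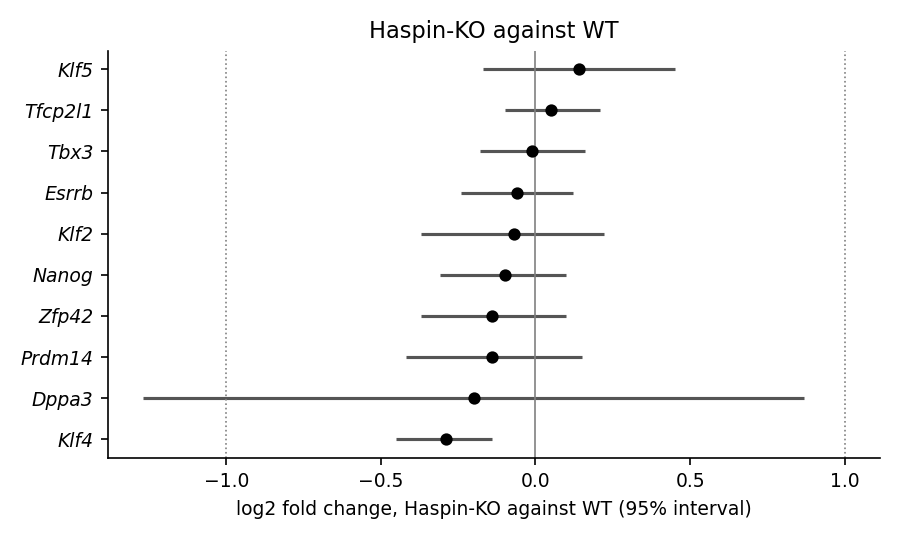
Log2 fold change of Haspin-KO against WT for each gene (points) with its 95% interval from the edgeR fit (lines), ordered by size, with 0 as a solid line and a 2-fold change either way as dotted lines. The interval of Klf4, -0.45 to -0.14, is the only one of the 10 that leaves out 0, and that of Dppa3, -1.27 to 0.87, is the widest.

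The replicates differed more than the genotypes for most of these genes. The difference between genotypes was smaller than that between replicates in WT and also in Haspin-KO for 8 of 10 genes, all but Klf4 and Tfcp2l1. This held for 30.8% of tested genes with reads in every library. Among genes with a mean of at least 30 CPM it held for 26.9%. The median difference between replicates was 0.184 in WT and 0.247 in Haspin-KO on the log2 CPM scale, where that between genotypes was 0.12. In genes with a mean of at least 30 CPM these medians were 0.0923, 0.0908 and 0.123. The difference between genotypes is one of means over 2 libraries, which varies less than a difference of single libraries. For 9 of 10 genes the replicates differed in the same direction in both genotypes, against 61.6% of the genes. The share was 64.1% in genes with a mean of at least 30 CPM. Nanog, Klf2, Prdm14 and Dppa3 were higher in replicate 1 of both, while Esrrb, Tfcp2l1, Klf4, Klf5 and Zfp42 were higher in replicate 2 of both, and Tbx3 was mixed. Klf5 had nearly the same log2 difference of replicate 1 from replicate 2 in both, -0.37 in WT and -0.36 in Haspin-KO, as did Klf2 with 0.33 and 0.37. No source says that libraries of the same number were prepared together.

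**Figure D3:**
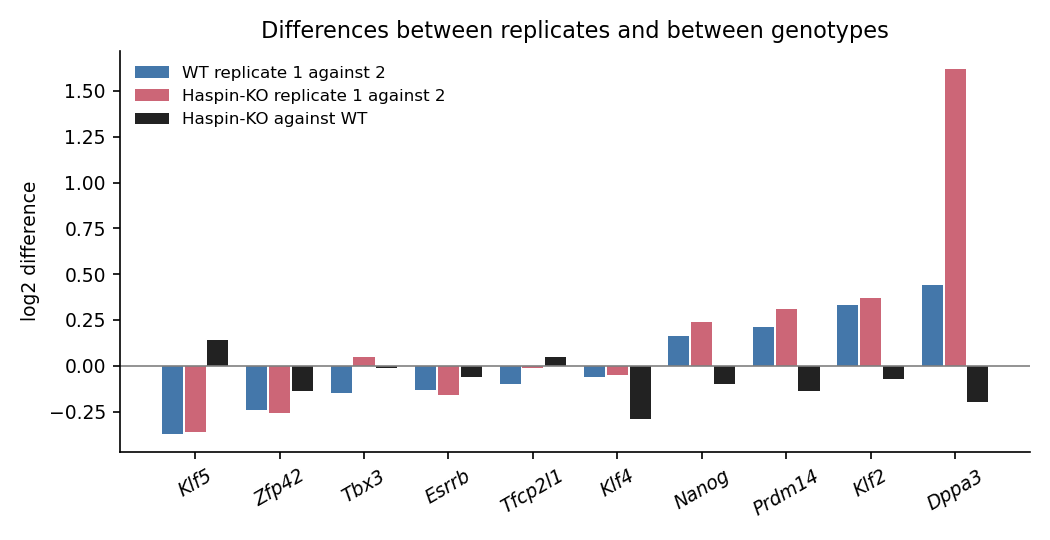
Log2 difference in CPM of replicate 1 from replicate 2 in WT (blue) and in Haspin-KO (red), and the log2 fold change of Haspin-KO against WT (black), for each gene. For all genes but Tbx3 the blue and red bars point the same way, and for all but Klf4 and Tfcp2l1 the black bar is shorter than both, from 0.01 for Tbx3 to 0.20 for Dppa3.

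Other genes of the naive state were given as a list of 12 transcription factors, enzymes and surface markers. Of these, 1 rose and 1 fell by edgeR, against 2.50% of all genes called, and the median log2 fold change was 0.06. Dppa2, a SAP domain protein of early embryos, measured 100.3 and 98.5 CPM in WT and 138.9 and 130.6 CPM in Haspin-KO, a rise of 0.44 ± 0.077 (SE) on the log2 scale (edgeR adjusted p = 0.0221). Tcl1, a coactivator of the kinase Akt, measured 61.6 and 61.8 CPM in WT and 45.3 and 44.4 CPM in Haspin-KO, and its log2 fold change was -0.46 ± 0.085 (edgeR adjusted p = 0.0274). Neither gene's groups overlapped, and both were also called by DESeq2 but not by limma on FPKM. Limma called 0 of all genes, so that its 0 in this list and in those below says nothing about their genes.

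Of 8 core pluripotency genes, 0 were called by edgeR, DESeq2 or limma, and 1 had an unadjusted edgeR p under 0.05, against 20.8% of all genes, Sall4 (log2 fold change 0.25, edgeR adjusted p = 0.118), named after its value was seen. Their median was 0.17. Pou5f1 (Oct4) measured 1072.5 and 1029.1 CPM in WT and 933.4 and 976.8 CPM in Haspin-KO, a log2 fold change of -0.14 (edgeR adjusted p = 0.274). Sox2 measured 302.3 and 393.1 CPM in WT and 355 and 382.2 CPM in Haspin-KO, a log2 fold change of 0.08 (edgeR adjusted p = 0.710).

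The inputs of the network were a list of 10 genes of the LIF and Wnt pathways. By edgeR 0 were called, with a median of 0.04, and 2 of the 10 had an unadjusted p under 0.05, a share near the 20.8% of all genes. Named after their values were seen, these were Gsk3b, the kinase inhibited in 2i (log2 fold change 0.27, edgeR adjusted p = 0.143), and Axin2, a transcriptional target of Wnt signalling (log2 fold change -0.42, edgeR adjusted p = 0.0650). DESeq2 called Axin2 alone of the list, and limma 0. Ctnnb1 (beta-catenin) and Stat3, the pair with the most reads in the list, had log2 fold changes of 0.02 and -0.02.

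Formative and primed genes, which rise as cells leave the naive state, were also 10. By edgeR and DESeq2 0 of the 10 were called, and by limma 0 of the 8 it fitted. The median was 0.13, while 5 of the 10 had an unadjusted edgeR p under 0.05, 4 above 0 and 1 below, against 20.8% of all genes. Dnmt3b, a de novo DNA methyltransferase, measured 129.8 and 120.7 CPM in WT and 151.3 and 158.2 CPM in Haspin-KO, a log2 fold change of 0.30 (edgeR adjusted p = 0.0717). Etv4, an Ets factor, had a log2 fold change of -0.04 (edgeR adjusted p = 0.909). The other genes with an unadjusted p under 0.05 were Fgf5, Dnmt3a and Sox3 above 0 and Otx2 below 0, named after their values were seen. Fgf5 had 2 and 1 counts in WT and 9 and 10 in Haspin-KO, where 3 counts are the smallest number taken here as shown by a library.

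Most feeder markers moved between the genotypes in the same libraries, while 0 of the primitive endoderm markers were called. Among the feeder markers Col1a2, Col1a1 and Col3a1, which are fibrillar collagens, and Lox, which crosslinks collagen, had the smallest p. Fbn1 (log2 fold change -0.10, edgeR adjusted p = 0.709) and Thy1 (-0.51, edgeR adjusted p = 0.474) were tested and not called. Col1a2 measured 29.5 and 24.2 CPM in WT and 0.487 and 0.490 CPM in Haspin-KO. Lox had 1215 and 657 counts in WT and 0 in both Haspin-KO libraries, at least 446.4-fold lower against a floor of 3 counts over the group, and Lum, another marker, was at 0 in all 4 libraries. The median log2 fold change of the feeder list was -4.02, also with the genes at 0 set to that floor. The markers of primitive endoderm had a median of 0.10, with 0 of 6 tested called by edgeR. DESeq2 called 0 of the 8 it fitted and limma 0 of 3. At an unadjusted edgeR p under 0.05 (20.8% of all genes) it was 1 of the 6, Lama1, with a log2 fold change of -0.25 (Dab2 had -0.04). Their summed level was 152.9 and 158.2 CPM in WT and 142 and 129.4 CPM in Haspin-KO.

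Of the markers of 2-cell-like cells, a rare state in ES cell cultures, 5 of 9 tested rose by edgeR, against 0.988% of all genes, and the same number by DESeq2 and 0 by limma on FPKM. The median was 1.14. Of the genes called, those with the smallest p were Zscan4d (log2 fold change 1.39), Zscan4c (1.23), Gm8300 (1.14) and Gm5662 (1.12). Tested and not called by edgeR were Tdpoz4 (1.28), Zfp352 (1.25), Usp17lc (0.76) and Tcstv3 (0.02, edgeR adjusted p = 0.988). Tcstv1, with at most 3 counts in a library, was not tested. The summed level of the 10 listed markers was 66.8 and 58.8 CPM in WT and 164.6 and 124.6 CPM in Haspin-KO. The members of these families are near-identical copies, and their single values are uncertain. The part of the feeder and 2-cell-like markers in the values of the 10 genes was not tested.

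**Figure D4:**
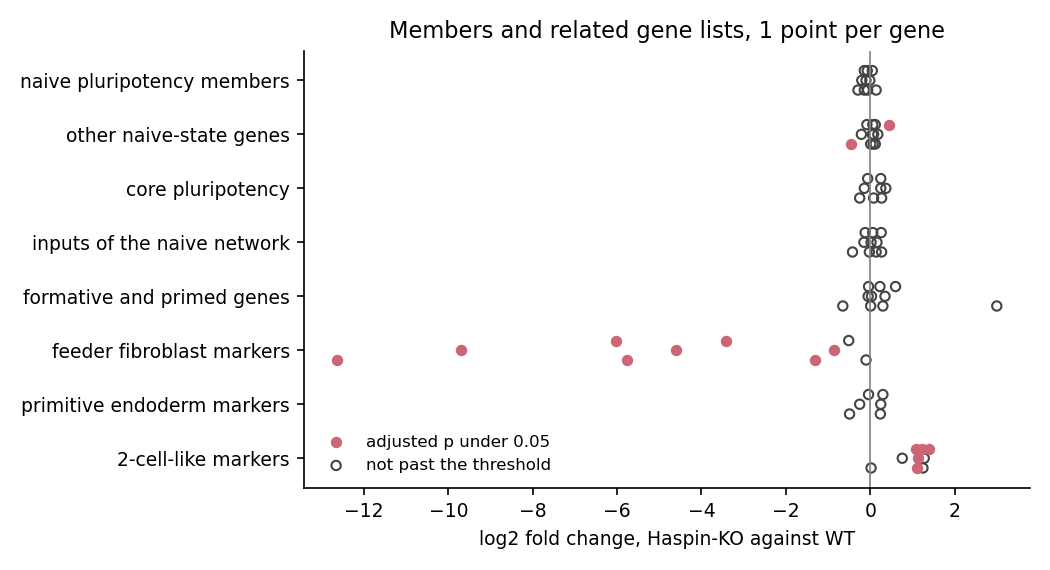
Log2 fold change of Haspin-KO against WT by edgeR for every tested gene of the 8 lists, 1 point per gene, filled where the adjusted p was under 0.05 (heights within a row carry no meaning). The 10 naive pluripotency genes lie between -0.29 and 0.14 with no filled point, while 8 of 10 feeder markers and 5 of 9 2-cell-like markers are filled, and the values of feeder genes with no count in Haspin-KO depend on the prior count of the fit.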

How the data were processed

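WT and Haspin-KO cells of the line E14 were profiled by RNA-seq, with 2 libraries per genotype and groups taken from the labels. Per the labels and methods, libraries were prepared from total RNA with a SMARTER mRNA-seq kit and sequenced on a NovaSeq instrument. The submitters' processing notes list cutadapt (1.9.1), HISAT2 (2.0.1), HTSeq (0.6.1), DESeq2 and mm10. The authors deposited raw counts per gene and FPKM computed from them by exonic length and library total. Strand setting and the treatment of multiply mapped reads are not given in the sources used here. The table held 0 value columns of other samples, and 26731 genes had no count.

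Counts were normalized by TMM, filtered with filterByExpr and compared by the quasi-likelihood test of edgeR (4.0.16, under R 4.3.3) on genotype alone, for 15580 genes. A call is a Benjamini-Hochberg adjusted p under 0.05. Each SE was derived from the log2 fold change and its F statistic, and 95% intervals used the total degrees of freedom. DESeq2 (1.42.0), limma (3.58.1) applied to log2(FPKM + 0.1) where 2 or more libraries reached 0.5 FPKM, other normalizations and filters, and leaving each library out were alternatives. The tests were tested on simulated data. The floor of 3 counts covers counting error only. An exact permutation test of 2 against 2 libraries cannot give a two-sided p below 0.333, so none was used.

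The 10 genes and all lists were chosen with earlier results of these data known. Named from each other list were the genes called (at most 4, smallest p first) or, with none called, the 2 with the highest mean CPM, and, for the gene with the smallest unadjusted p, the 3 nearest genes. The minimum of 30 CPM for well expressed genes was chosen after seeing the data. Coordinates matched GENCODE M21 (GRCm38) for all 10 genes, promoters came from RefSeq (GRCm38.p6), and shared stretches were counted over GENCODE transcripts.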

Additional observations from a re-analysis of the deposited data

How the results depend on the processing

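Klf4 was below 0 under all 13 alternatives and passed the adjusted p of 0.05 in 3 of them, at -0.32 with no filter on low counts (edgeR adjusted p = 0.00732), at -0.30 with DESeq2 (adjusted p = 0.0329) and at -0.29 with the replicate block (edgeR adjusted p = 3.96e-05), each then the only gene of the 10 called, 1 against 0. Of all genes, 4.09%, 3.84% and 22.6% were called in these fits. Over all 13 its adjusted p ranged from 3.96e-05 to 0.264. At an unadjusted p under 0.05 the count was also 1. None of the other 9 genes passed under any alternative (DESeq2 gave Dppa3 no adjusted p), and none changed direction outside the settings that leave out a library. The number of genes called, 390, went to 1172 with no filter, to 3514 with the replicate block and to 0 with limma on FPKM at a pseudocount of 0.1, of 1 and of 0.1 without a filter (unadjusted p under 0.05 in 2736, 2772 and 3574 genes), and 129 passed with a fold change over 2 as well. The causes were not tested, although the settings without a filter test more genes. Whether same-numbered replicates were prepared together is not known, and no source gives a pairing. Their deviations correlated with r = 0.276 over 15580 genes. With the replicate block 3 of the 10 genes, Klf4, Zfp42 and Klf5, had an unadjusted edgeR p under 0.05, where 5268 of 15580 genes did. Leaving out single libraries gave 96 to 878 genes called (96 without WT replicate 1, 102 without WT replicate 2, 753 without Haspin-KO replicate 1 and 878 without Haspin-KO replicate 2) and a median over the 10 genes from -0.13 to 0.01, with the lone library of a genotype assumed to vary like the others. The log2 fold changes then ranged from -0.22 to 0.01 for Nanog (above 0 without Haspin-KO replicate 2), -0.15 to 0.02 for Esrrb, -0.27 to 0.10 for Klf2, -0.06 to 0.33 for Klf5, -0.09 to 0.07 for Tbx3, -0.30 to 0.01 for Prdm14 and -1.22 to 0.39 for Dppa3, all of which crossed 0, and from -0.33 to -0.27 for Klf4, -0.28 to -0.01 for Zfp42 and 0 to 0.11 for Tfcp2l1, which did not. Depth limits Dppa3, with 10 to 41 counts per library.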

Other observations

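Primers for Nanog and Klf4 are listed in the study, and were set against the GENCODE M21 transcripts (GRCm38) because the amplified stretch decides which RNA a PCR reads. They are printed 5′ to 3′ in lower case, with a capital for the base that differs from the closest site.
Nanog-F: aaaggatgaagtgcaagcggtg
Nanog-R: gggatactccactggtgctgag
Klf4-F: actatgcaggctgtggcaaaac
Klf4-R: tagtgcctggtcagttcatcCg
closest Klf4 site to Klf4-R: tagtgcctggtcagttcatcGg
Nanog-F (chr6:122712651-122712672) and Nanog-R (chr6:122713147-122713168) lie in coding exons and span 92 bases of the transcript. Nanog-R also matches the pseudogene Nanog-ps2, which had 0 counts in all 4 libraries. Klf4-F (chr4:55529765-55529786, coding) also matches Gm48640. Klf4-R had no perfect match in any transcript, and its closest site in Klf4 (chr4:55528225-55528246) differed by 1 base, C21G, where the primer base stands first and positions count from 1 at the 5′ end of the primer. The sequence of the E14 strain at this site was not checked.

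With Haspin-KO replicate 1 left out, a single Haspin-KO library was set against 2 of WT and assumed to vary like the others. This was 1 of the 4 settings that leave out a library. Log2 fold changes were then -1.22 for Dppa3, -0.30 for Prdm14, -0.27 for Klf2 and Klf4, and -0.22 for Nanog. They were -0.03 for Tbx3, -0.01 for Zfp42, 0.02 for Esrrb, 0.06 for Tfcp2l1 and 0.31 for Klf5. Their median was -0.13, where it was -0.09 with all libraries.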
